A study of Homo sapiens with 8 samples.

Results

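Collagen chains were described here, the genes whose name has the form COL, a number, A and a number, in 8 ribosome profiling libraries of the human foreskin fibroblast line BJ. The name pattern found 38 chains among 11546 genes in the table without 4-hydroxytamoxifen (4-OHT) and 28 of these among 11079 genes in the table with it. Of the 38 chains, 10 belong to fibrillar types, 7 to network-forming types and 21 to other types. Ribosome profiling sequences the stretches of mRNA that ribosomes cover, so each value combines how much of an mRNA is present with how much it is translated. All cells are labelled BJ-HRAS, HRAS being a signalling GTPase. They were wild type (WT, clones 15 and 54) or SNORA13 knockout (KO, clones 66 and 69), SNORA13 being a small nucleolar RNA. Every clone gave 1 library grown without 4-OHT, an estrogen receptor ligand, and 1 treated with it at 100 nM for 7 days. This gave 4 groups of 2 libraries, in which each genotype is carried by 2 clones and cannot be told apart from them. Neither table had a row named SNORA13 or HRAS, so the genotype and HRAS labels were not checked against values.

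Collagens are secreted matrix proteins built as helical trimers of chains rich in glycine and proline. Fibrillar types such as I, III and V form the cross-striated fibrils of skin, and network types such as IV and VIII form sheets in basement membranes and beneath endothelia. The other types include the beaded filaments of type VI, the anchoring fibrils of type VII, the fibril-associated types XII, XIV and XVI, membrane-spanning types such as XIII, and types XV and XVIII of basement membrane zones. Dermal fibroblasts are a main source of types I and III in skin.

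Values are RPKM, reads per kilobase of a gene's genomic span (introns included), scaled to the library's total. They compare 1 chain between libraries and are not a scale for comparing chains with each other. The libraries held between 190947 (KO clone 66 with 4-OHT) and 1710106 (KO clone 69 without 4-OHT) reads, as recovered from the values. All 8 fibroblast markers looked for (THY1, PDGFRA, PDGFRB, VIM, FAP, S100A4, LUM and DCN) were listed, and their summed share of reads was 1.45% to 1.70% in the libraries without 4-OHT and 1.97% to 2.65% in those with it. Taken singly the markers went both ways with 4-OHT, 2 rising (VIM and S100A4) and 5 falling in WT clones (PDGFRA, PDGFRB, FAP, LUM and DCN), and 2 rising and 4 falling in KO clones. VIM, the intermediate filament vimentin, rose from 627 to 2141 RPKM (group means) in WT and from 610.2 to 1860 in KO clones. DCN, the collagen-binding proteoglycan decorin, fell from 42.8 to 1.16 in WT and from 51.5 to 1.20 in KO clones. FAP, a fibroblast surface protease, fell from 2.997 to 0.260 in WT and from 3.85 to 0.198 in KO clones. Of 6 keratinocyte markers 1 was found (at most 0.00453% of reads), of 5 endothelial markers 2 (at most 1.75e-04%), of 4 smooth muscle markers 3 (at most 0.00362%) and of 4 chondrocyte markers 2 (at most 0.00704%). Of 5 leukocyte markers 3 were found (0.0136% to 0.0287% without and 0.0257% to 0.0401% with 4-OHT), of 5 epithelial markers 3 (at most 0.0381%) and of 5 melanocyte markers 1 (at most 0.00786%). No marker that was found was at 0 in every library, and the part of other cell types in the results was not tested. Libraries with and without 4-OHT came from separate tables, so 4-OHT and any batch of the tables cannot be told apart. In such bulk samples fewer cells that make a chain and less of its mRNA per cell cannot be told apart either.

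Promoter sequences are shown first for chains of one trimer, since both main type IV chains fell in both genotypes and COL6A3 went against COL6A1 and COL6A2 in direction. COL4A1 and COL4A2, the main type IV chains, lie head to head on chromosome 13, with start sites 127 bp apart. The 126 bases between these sites, chr13:110307158-110307283 on the plus strand, follow. Those for COL6A2 and COL6A3, chains of type VI, are the 150 bases before the start site, chr21:46097962-46098111 on the plus strand and chr2:237414165-237414314 on the minus strand. All are from RefSeq (GRCh38.p14), 5′ to 3′ (for COL4A1-COL4A2 in the direction of COL4A2). Capitals mark motif letters matched on either strand. For the CAAT box the letters were CCAAT, which nuclear factor Y is known to bind. For the GC box, known to be bound by Sp proteins, they were GGGCGG. For the TATA box of core promoters they were TATAAA. For the AP-1 site of Jun and Fos proteins they were TGANTCA. The COL6A3 window held no match to any of these.
COL4A1-COL4A2: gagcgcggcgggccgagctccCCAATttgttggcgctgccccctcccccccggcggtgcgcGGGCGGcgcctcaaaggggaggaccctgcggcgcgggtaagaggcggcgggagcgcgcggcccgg
COL6A2: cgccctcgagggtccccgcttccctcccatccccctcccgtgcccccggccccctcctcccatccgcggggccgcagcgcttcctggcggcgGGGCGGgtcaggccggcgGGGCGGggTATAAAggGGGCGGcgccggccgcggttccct
COL6A3: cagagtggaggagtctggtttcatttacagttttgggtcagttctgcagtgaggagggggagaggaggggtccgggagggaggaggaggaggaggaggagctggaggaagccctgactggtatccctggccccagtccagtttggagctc

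Over the 250 bases before the start site, 12 of the 15 tested chains with a promoter entry held a GC box, as did 42.3% of 27305 promoters. A CAAT box was found for 4 chains, COL4A1, COL4A2, COL5A3 and COL11A1 (33.0% of all promoters), and a TATA box for 3, COL6A2, COL7A1 and COL13A1 (11.1%). None of the 15 held these letters of the AP-1 site (6.60% of all promoters) in this window. COL1A1, COL1A2, COL3A1, COL5A2, COL6A1, COL8A1 and COL14A1 had no entry. Such matches are descriptions of sequence, with no motif overlapping a different one in the windows printed above.

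The first question was how collagen footprints differ with 4-OHT. In WT clones 17 of 22 tested chains fell and 0 rose, and in KO clones 13 fell and 3 rose. The genes that fell include every tested fibrillar chain in WT clones and the main type IV chains in both genotypes. On the log2(RPKM + 1) scale COL1A1 and COL3A1 had the largest falls among the chains in both genotypes, while limma-voom on recovered reads gave COL15A1 the largest log2 fall (-8.27 in WT and -5.61 in KO clones). Type VI departed from this, with COL6A1 and COL6A2 higher in all 4 clones with 4-OHT and COL6A3 lower in all 4. The test was limma-trend on log2(RPKM + 1), adjusted by Benjamini-Hochberg over the 8777 genes that reached 10 recovered reads in 2 or more of the 8 libraries, at a threshold of 0.05. Over these genes 8.06% fell and 13.5% rose in WT clones, and 10.6% fell and 17.1% rose in KO clones. Among 5877 tested genes with a span within the range of the tested chains (17531 to 409214 bp), 8.88% fell and 8.63% rose in WT clones and 11.3% fell and 12.5% rose in KO clones. The median log2 fold change of the 22 chains was -1.33 in WT and -1.07 in KO clones, against 0.06 and 0.05 over all tested genes. With median-ratio scaling of the libraries, genes over the whole table split into 808 higher and 959 lower in WT clones in place of 1182 and 707, and 1003 and 1331 in KO clones in place of 1498 and 929, while 17 and 14 chains were lower and 0 and 1 higher. In 18 of 22 chains all 4 libraries with 4-OHT lay below all 4 without, which held for 15.9% of tested genes, and in 1, COL13A1, above (24.5% of tested genes). The 3 chains with overlapping libraries were COL5A3, COL6A1 and COL6A2. The 22 are not all 38 chains, and 5 of them (COL4A4, COL5A3, COL8A2, COL14A1 and COL15A1) passed the read filter only through libraries without 4-OHT, where they were high, 4 of these being among the 18. COL13A1 passed only through libraries with 4-OHT. For these 6 chains the filter partly fixed the direction. Their calls, here and below, and all counts and medians that include them are therefore descriptions.

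**Figure D1:**
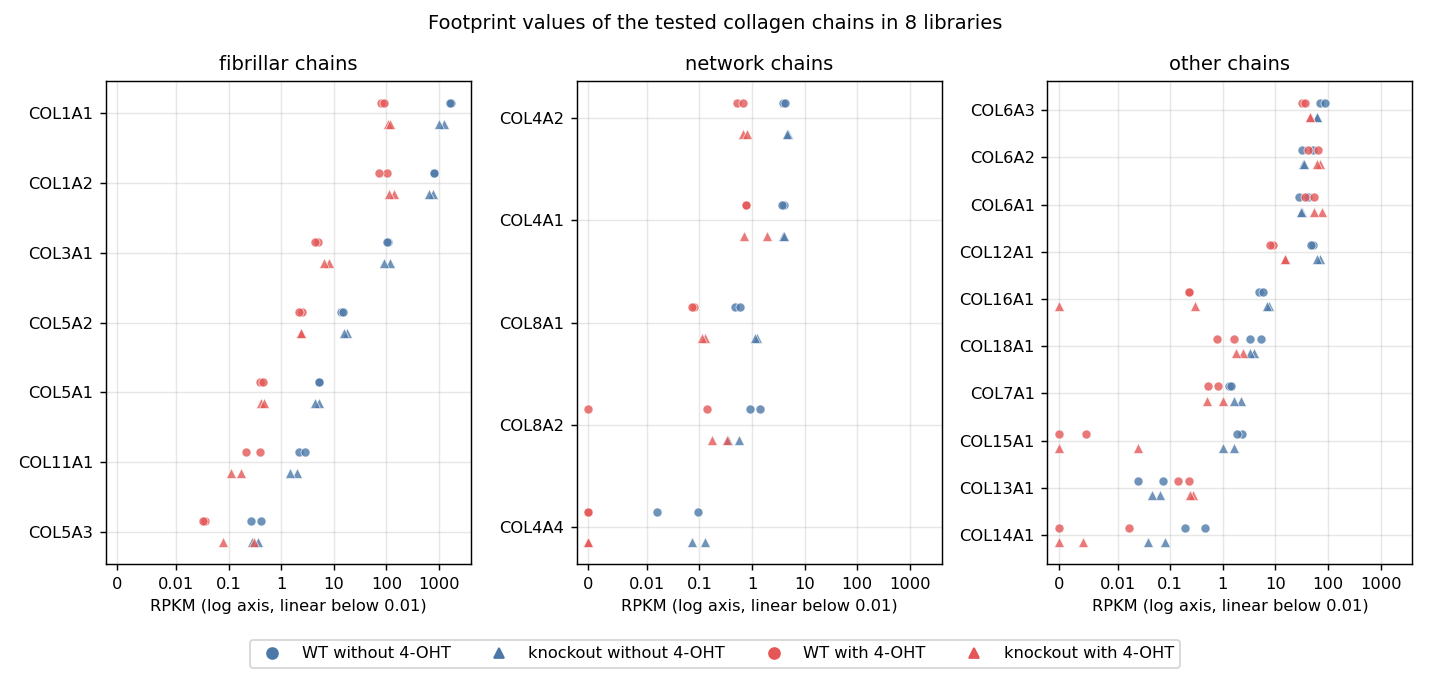
RPKM (log axis, linear below 0.01) of the 22 tested chains in each of 8 libraries, by class, with circles for WT and triangles for KO clones, blue without and red with 4-OHT. Red points lie left of blue points in 18 chains, right of them in COL13A1, and overlap with them in COL5A3, COL6A1 and COL6A2.

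Type I collagen, the main fibrillar collagen of skin, gave the most reads of any type without 4-OHT. COL1A1 (ENSG00000108821.13; GRCh38.p14 chromosome 17, 50184101 to 50201631) measured 1699 and 1594 RPKM in WT clones 15 and 54 without 4-OHT and 77.1 and 89.2 with it. KO clones 66 and 69 measured 1223 and 983 without and 106 and 116 with 4-OHT. The groups with and without 4-OHT lay far apart, 19.8-fold in WT and 9.92-fold in KO clones by their means. The log2 fold change was -4.29 ± 0.19 (SE, adjusted p = 6.70e-05) in WT and -3.29 ± 0.19 (adjusted p = 1.16e-04) in KO clones. COL1A2 (ENSG00000164692.17; chromosome 7, 94394895 to 94431227), the partner chain in the type I trimer, measured 808 and 788 RPKM in WT and 766 and 650.2 in KO clones without 4-OHT. With 4-OHT it measured 102 and 73.1 in WT and 139 and 111 in KO clones. COL1A2 fell 9.14-fold in WT clones and 5.66-fold in KO clones, with log2 fold changes of -3.20 ± 0.22 and -2.50 ± 0.22 (adjusted p = 3.37e-04 and 6.05e-04).

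The 5 remaining fibrillar chains that were tested fell in WT clones, and all of them but COL5A3 fell in KO clones. COL3A1 (ENSG00000168542.14; chromosome 2, 188974373 to 189012746), the single chain of type III, measured 106 and 104 RPKM in WT and 119 and 89.0 in KO clones without 4-OHT. With 4-OHT it measured 5.08 and 4.33 in WT and 8.18 and 6.44 in KO clones, a log2 fold change of -4.22 ± 0.21 and -3.65 ± 0.21. Type V, which sits inside type I fibrils and limits their width, fell in both of its main chains. COL5A1 went from 5.24 and 5.25 RPKM to 0.391 and 0.460 in WT clones and from 5.18 and 4.35 to 0.413 and 0.481 in KO clones. COL5A2, which lies near COL3A1 on chromosome 2, went from 13.9 and 14.9 to 2.49 and 2.18 in WT and from 17.7 and 15.7 to 2.41 and 2.38 in KO clones. COL5A1 thus fell 12.3-fold and 10.7-fold, and COL5A2 fell 6.18-fold and 6.98-fold. COL11A1, a type XI chain known best from cartilage, went from 2.19 and 2.80 to 0.212 and 0.395 in WT clones. In KO clones it went from 1.98 and 1.47 to 0.113 and 0.176, and its adjusted p was 0.00266 in WT and 0.00379 in KO clones.

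COL5A3, a minor type V chain, rested on few reads, 35 in both WT libraries without 4-OHT and 4 with it. It measured 0.267 and 0.422 RPKM without and 0.0349 and 0.0333 with 4-OHT in WT clones (adjusted p = 0.0384). With the clone as a replicate block this was 0.0682, and the call was lost without any 1 of the 6 libraries other than the KO libraries with 4-OHT (adjusted p between 0.0560 and 0.205). In KO clones COL5A3 measured 0.283 and 0.367 without and 0.309 and 0.0799 with 4-OHT (adjusted p = 0.292). Leaving out COL5A3, the calls of the 6 other fibrillar chains held in both genotypes under all 15 alternative settings.

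**Figure D2:**
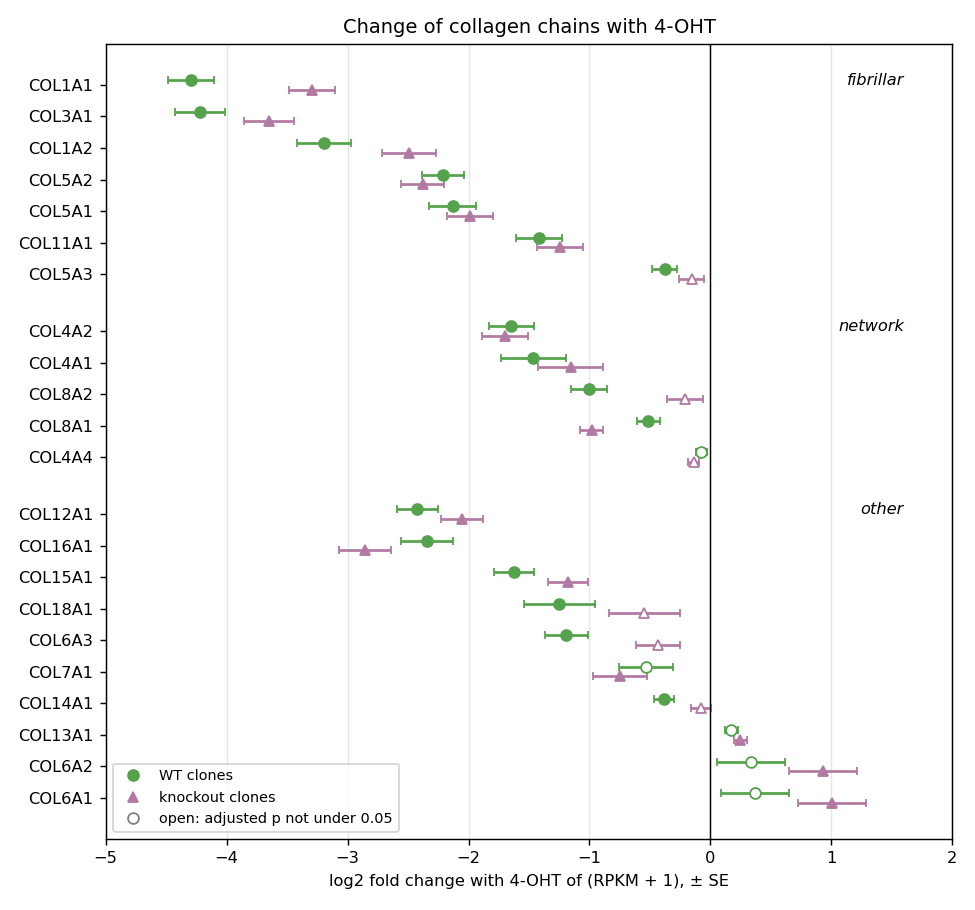
Log2 fold change of (RPKM + 1) with 4-OHT (points) with its SE (bars) for the 22 tested chains by class, in WT clones (circles) and KO clones (triangles), filled where the adjusted p was under 0.05. Fibrillar chains reach -4.29, network chains lie between -1.70 and -0.08, and COL6A1 and COL6A2 lie above 0 with 1.00 and 0.93 in KO clones.

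Of 5 tested network chains 4 fell in WT and 3 in KO clones. The median log2 fold change was -1.002 over 5 network chains in WT clones and -0.98 in KO clones, against -2.21 and -2.38 over 7 fibrillar chains. COL4A4, COL8A2 and, among fibrillar chains, COL5A3 passed the read filter only through libraries without 4-OHT, so these medians are descriptions. Low values enter the log2(RPKM + 1) scale strongly compressed, and the network chains all lay under 5 RPKM. With limma-voom on recovered reads the same network chains lay between -4.18 and -2.34 in WT clones and between -3.93 and -0.36 in KO clones. Fibrillar chains lay there between -4.45 and -2.60 in WT clones and between -3.86 and -1.44 in KO clones, so the classes overlapped. COL4A1 went from 3.99 and 3.74 RPKM to 0.765 and 0.762 in WT clones and from 3.81 and 4.06 to 1.89 and 0.695 in KO clones. COL4A2 went from 3.87 and 4.17 to 0.530 and 0.684 in WT clones and from 4.80 and 4.56 to 0.687 and 0.816 in KO clones. These chains of the common type IV trimer, shown above with their shared promoter, were each lower in every clone, COL4A1 5.06-fold and COL4A2 6.63-fold in WT clones. In KO clones COL4A1 was 3.05-fold and COL4A2 6.23-fold lower, and the 2 libraries with 4-OHT differed for COL4A1 (57 reads in clone 66, 108 in clone 69). The WT call of COL4A1 (adjusted p = 0.00908) was lost without WT clone 15 or 54 without 4-OHT or WT clone 54 with it (adjusted p = 0.0638, 0.0594 and 0.0578). Its KO call (adjusted p = 0.0190) was lost without KO clone 66 or 69 without 4-OHT. It was also lost with only the 4 KO libraries in the fit (adjusted p = 0.0765).

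Type VIII chains, which form hexagonal networks, were lower with 4-OHT in every clone. COL8A1 measured 0.475 and 0.598 RPKM without and 0.0775 and 0.0739 with 4-OHT in WT clones, and 1.27 and 1.16 without and 0.130 and 0.114 with it in KO clones. It fell in both genotypes, by 7.09-fold and 9.94-fold. The WT call (adjusted p = 0.00874) was lost without WT clone 54 without 4-OHT or either WT clone with it (adjusted p = 0.0702, 0.0608 and 0.0758). COL8A2 measured 0.908 and 1.39 without and 0.138 and 0 with 4-OHT in WT clones (adjusted p = 0.00393), where it fell. In KO clones it measured 0.555 and 0.351 without and 0.175 and 0.340 with 4-OHT, with 33 and 11 reads in all, and did not pass (adjusted p = 0.332). COL4A4, a type IV chain of kidney and eye, had 26 reads in WT and 47 in KO libraries without 4-OHT and 0 in all 4 with it. Set against a floor of 3 reads per library it was at least 3.14-fold lower in WT and 2.13-fold lower in KO clones, and it passed neither test (adjusted p = 0.292 and 0.0617). With limma-voom on recovered reads it passed both (adjusted p = 0.0136 and 0.0132), and the gene RHBDD1 overlaps its span.

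Type VI collagen, whose chains assemble into beaded filaments around cells, was the main exception. COL6A1 (ENSG00000142156.14; chromosome 21, 45981770 to 46005048) measured 28.0 and 41.5 RPKM without and 37.1 and 53.1 with 4-OHT in WT clones. In KO clones it measured 31.2 and 31.1 without and 76.2 and 52.9 with 4-OHT. The WT groups overlapped and the KO groups did not. COL6A2 (ENSG00000142173.15; chromosome 21, 46098112 to 46132848), a partner in the same trimer, measured 31.9 and 50.9 without and 41.6 and 63.0 with 4-OHT in WT clones, and 33.2 and 35.2 without and 70.7 and 61.5 with it in KO clones. Both chains were higher in 4 of 4 clones with 4-OHT, by 1.30-fold and 1.26-fold over the means of WT clones, which did not pass (adjusted p = 0.398 and 0.444). In KO clones COL6A1 rose 2.07-fold and COL6A2 1.93-fold (adjusted p = 0.0357 and 0.0454). These KO calls were close to the threshold. With median-ratio scaling they were lost (adjusted p = 0.121 and 0.160), as they were for COL6A1 without KO clone 66 or 69 without 4-OHT or clone 66 with it (0.134, 0.115 and 0.140). COL6A2 lost its call without any 1 KO library (adjusted p between 0.0559 and 0.173), and with the smaller pseudocount of 0.1 (0.0513). Both KO calls were also lost with no read filter (adjusted p = 0.0535 and 0.0656). With only the 4 KO libraries in the fit that of COL6A1 was lost (adjusted p = 0.0509). With the collagen chains left out of the library totals COL6A2 lost its KO call (log2 fold change 0.85, adjusted p = 0.0621) and COL6A1 kept it. COL6A1 kept its KO call in 9 and COL6A2 in 7 of 15 alternatives. No scaling or other alternative turned the direction of either chain in either genotype. In WT clones, though, the smallest log2 fold change among the alternatives was 0.095 for COL6A1 and 0.0084 for COL6A2, close to no change.

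COL6A3 (ENSG00000163359.15; chromosome 2, 237324018 to 237414164), the largest chain of type VI, went the other way. It measured 69.9 and 88.5 RPKM in WT and 62.1 and 61.8 in KO clones without 4-OHT, and 32.2 and 35.6 in WT and 46.2 and 45.0 in KO clones with it. The libraries with 4-OHT lay below those without in both genotypes. It fell in WT clones (log2 fold change -1.19 ± 0.18, adjusted p = 0.00399, called in all 15 alternatives). In KO clones the log2 fold change of -0.43 ± 0.18 did not pass (adjusted p = 0.113), and it did with limma-voom (0.00368) and with median-ratio scaling (0.0212).

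The 3 tested fibril-associated chains were lower with 4-OHT in each clone. COL12A1, a long chain found on the surface of type I fibrils, measured 52.3 and 46.5 RPKM in WT and 70.8 and 62.3 in KO clones without 4-OHT. With 4-OHT it measured 8.97 and 7.84 in WT and 15.3 and 15.2 in KO clones, so it fell 5.88-fold and 4.36-fold. COL16A1 went from 4.82 and 5.72 to 0.229 and 0.230 in WT clones and from 7.58 and 6.87 to 0 and 0.295 in KO clones, and fell in both (adjusted p = 6.91e-04 and 3.10e-04). Its 0 was in the shallowest library, where 3 reads would give 0.304 RPKM. COL14A1 measured 0.195 and 0.453 without and 0.0167 and 0 with 4-OHT in WT clones (adjusted p = 0.0169), and the call was lost without WT clone 15 or 54 with 4-OHT (0.0721 and 0.0999). In KO clones COL14A1 had 34 reads without and 1 with 4-OHT, a ratio of 15.3 (95% exact counting interval 2.56 to 621), and did not pass (adjusted p = 0.513).

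COL15A1, a chain of basement membrane zones that carries heparan or chondroitin sulfate, was nearly gone with 4-OHT. It measured 2.30 and 1.89 RPKM in WT and 1.62 and 0.994 in KO clones without 4-OHT, and 0.00467 and 0 in WT and 0 and 0.0240 in KO clones with it. In reads this was 576 against 1 in WT clones, a depth-adjusted ratio of 620.3 (95% exact counting interval 111 to 24543). In KO clones 402 reads stood against 3, a ratio of 60.2 (20.4 to 293). Its calls held in all 15 alternatives in both genotypes (adjusted p = 0.00106 and 0.00280). It passed the read filter only through libraries without 4-OHT, so these calls are descriptions. These intervals describe counting error alone, because they pool the reads of 2 clones and leave out the spread between them. PCR copies of 1 molecule can be counted repeatedly, which would make the intervals too narrow. COL18A1, whose C-terminal fragment is endostatin, measured 3.21 and 5.21 without and 0.764 and 1.63 with 4-OHT in WT clones and fell there (adjusted p = 0.0219). That call was lost without WT clone 54 without 4-OHT (adjusted p = 0.148) or WT clone 15 with it (0.117). In KO clones it measured 3.86 and 3.25 without and 2.46 and 1.80 with 4-OHT (adjusted p = 0.199, and 0.0237 as lower with limma-voom), and SLC19A1 and antisense genes overlap its span.

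COL7A1, the chain of anchoring fibrils under the epidermis, measured 1.33 and 1.46 RPKM without and 0.513 and 0.816 with 4-OHT in WT clones, and 2.20 and 1.65 without and 0.504 and 1.01 with it in KO clones. It passed as lower in KO clones alone (adjusted p = 0.0447, against 0.139 in WT clones), and there in only 3 of 15 alternatives. With the clone as a replicate block it was at 0.0823 and with limma-voom at 0.104, while limma-voom called it lower in WT clones (0.0245). The call was lost without any 1 library other than KO clone 69 with 4-OHT (adjusted p between 0.0650 and 0.205). COL13A1, a membrane-spanning chain of cell contacts, was higher in every clone. It measured 0.0240 and 0.0724 in WT and 0.0634 and 0.0446 in KO clones without 4-OHT, and 0.226 and 0.140 in WT and 0.266 and 0.233 in KO clones with it. In KO clones it rose 4.62-fold over the means (adjusted p = 0.0154). That call was lost without KO clone 66 or 69 without 4-OHT, and with only the 4 KO libraries in the fit (adjusted p = 0.0592). In WT clones the ratio was 3.80 and missed the threshold (adjusted p = 0.0600), and limma-voom called it (0.00692), as did the fits without KO clone 66 or 69 with 4-OHT (0.0383 and 0.0407).

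The 16 chains that did not pass the read filter had at most 11 reads in any library. Of these, 6 were in both tables. COL17A1, a transmembrane chain of epithelial hemidesmosomes, had 11 and 3 reads in WT clones 15 and 54 with 4-OHT and 0 in the other 6 libraries. COL2A1, the main collagen of cartilage, had between 2 and 3 reads in each library without 4-OHT and at most 1 with it. COL24A1, COL27A1, COL21A1 and COL4A5 had at most 10 reads in a library. A further 10, COL4A3, COL6A6, COL9A1, COL9A2, COL9A3, COL19A1, COL20A1, COL22A1, COL25A1 and COL26A1, were listed only in the table without 4-OHT, with at most 7 reads in a library. In the fit without a read filter COL17A1 was called higher in WT clones (adjusted p = 0.01001), from 0 reads to 14, and none of the other 5 was called.

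Because the chains moved by different amounts, the make-up of the collagen reads differed between conditions. All chains together took 8.58% and 8.61% of the reads in WT and 8.04% and 6.85% in KO clones without 4-OHT, and 1.29% and 1.34% in WT and 1.91% and 1.70% in KO clones with it. The fibrillar class took 6.82% ± 0.138 (SD, n = 2) of reads in WT clones without and 0.585% ± 0.0631 with 4-OHT, and 5.63% ± 0.753 and 0.775% ± 0.0639 in KO clones. Network chains took 0.154% ± 0.00285 and 0.0256% ± 0.00191 in WT clones and 0.178% ± 0.00339 and 0.0380% ± 0.0111 in KO clones. The other types went from 1.62% ± 0.156 to 0.705% ± 0.0968 in WT clones and from 1.63% ± 0.0882 to 0.989% ± 0.0721 in KO clones. Within the collagen reads, type I held between 58.6% and 67.6% without 4-OHT and between 31.1% and 38.5% with it. Type VI held between 9.15% and 12.2% without and between 39.8% and 48.9% with 4-OHT. The network share of collagen reads overlapped between conditions, with 1.77% to 2.57% without and 1.78% to 2.40% with 4-OHT. Type VI thus held more of the collagen reads than type I in every library with 4-OHT and less in every library without. Of all reads, type VI took 0.791% and 1.05% without and 0.513% and 0.655% with 4-OHT in WT clones, so its share of the library was lower in both. In KO clones it took 0.736% and 0.738% without and 0.825% and 0.728% with 4-OHT, which overlapped.

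**Figure D3:**
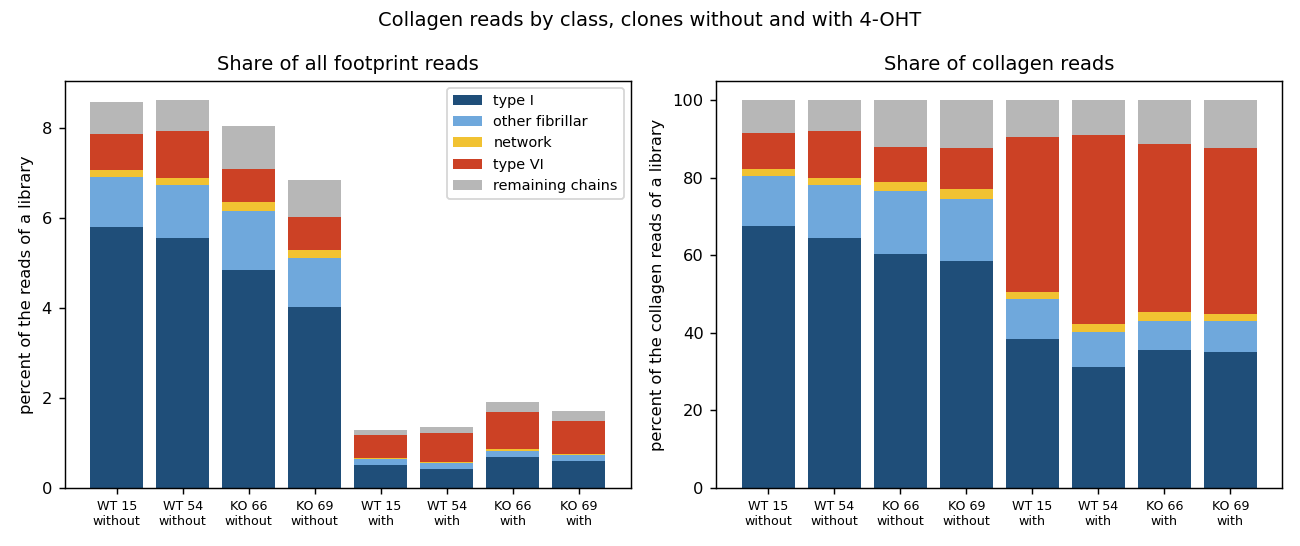
Percent of all reads (left) and of collagen reads (right) taken by type I, other fibrillar, network, type VI and remaining chains in each library. Collagen reads fall from between 6.85% and 8.61% of a library without 4-OHT to between 1.29% and 1.91% with it, and type VI holds between 39.8% and 48.9% of them with 4-OHT.

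The ratio of reads between chains of one trimer shifted with 4-OHT for some pairs and not for others. Within a library such a ratio does not depend on depth. Ratios of gene pairs outside the collagens were not computed, so these are descriptions. No length was used, so ratios are compared between libraries only. The reads ratio of COL1A1 to COL1A2 was 1.01 and 0.976 in WT and 0.771 and 0.729 in KO clones without 4-OHT, and 0.366 and 0.589 in WT and 0.369 and 0.505 in KO clones with it. All 4 libraries with 4-OHT lay below the 4 without, and without 4-OHT both KO clones lay below both WT clones. COL5A1 to COL5A2 went from 0.187 and 0.174 to 0.0779 and 0.105 in WT clones and from 0.145 and 0.138 to 0.0851 and 0.1003 in KO clones. COL6A3 to COL6A1 went from 9.68 and 8.26 to 3.36 and 2.60 in WT and from 7.69 and 7.70 to 2.35 and 3.29 in KO clones. By contrast COL6A1 to COL6A2 lay between 0.546 and 0.631 without and between 0.565 and 0.723 with 4-OHT, with overlapping ranges. COL4A1 to COL4A2 lay between 0.609 and 0.791 without 4-OHT and at 1.11, 0.855 and 0.655 with it in WT clones 15 and 54 and KO clone 69. KO clone 66 with 4-OHT stood at 2.11 (95% exact counting interval 1.31 to 3.47).

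**Figure D4:**
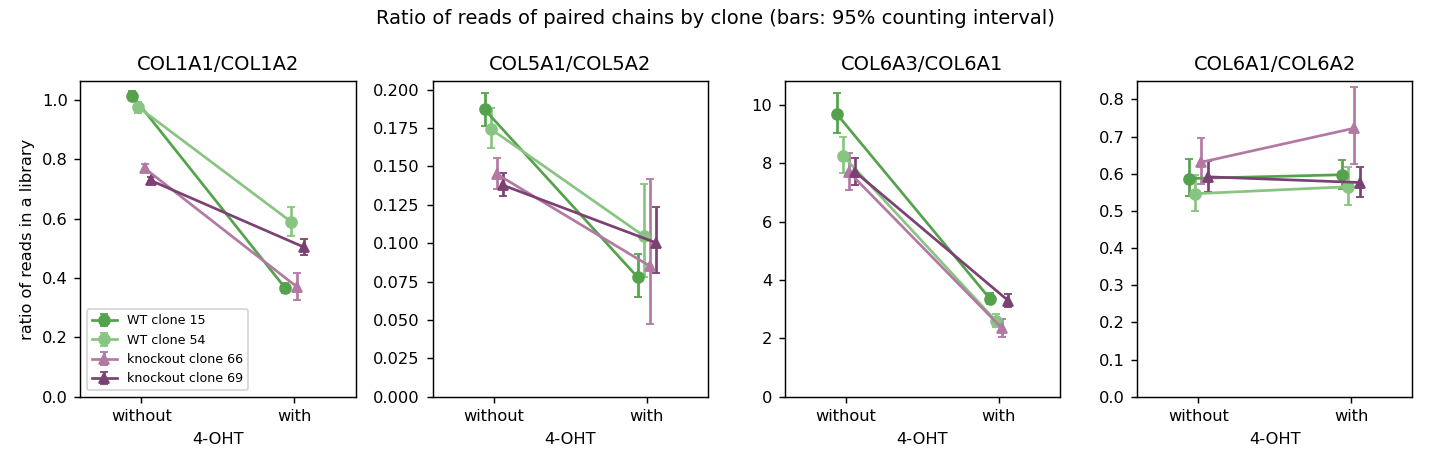
Ratio of the reads of paired chains within a library, without and with 4-OHT, with 1 line per clone (circles WT, triangles KO) and 95% exact counting intervals as bars. COL1A1/COL1A2, COL5A1/COL5A2 and COL6A3/COL6A1 are lower with 4-OHT in every clone, and COL6A1/COL6A2 stays between 0.546 and 0.723.

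The next question was whether the knockout changes collagen footprints or their change with 4-OHT. No chain passed in any of these comparisons. Without 4-OHT, limma-trend on the 4 libraries of that table called 0 of 21 chains and 0% of 8162 genes. At an unadjusted p under 0.05 stood 5 chains and 688 genes. COL1A1 was lower in KO clones (log2 fold change -0.59 ± 0.17), as were COL8A2 (-0.56 ± 0.17) and COL14A1 (-0.32 ± 0.10), and COL8A1 (0.53 ± 0.14) and COL12A1 (0.42 ± 0.17) were higher. None came under an adjusted p of 0.519. Limma-voom on recovered reads called 3 of the chains, COL1A1 (log2 fold change -0.61, adjusted p = 0.00123) and COL14A1 (-2.50, 0.0122) lower and COL8A1 (1.20, 0.00691) higher, and 68 genes in all.

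With 4-OHT, limma-trend called 0 of 17 tested chains and 0% of 7761 genes, and at an unadjusted p under 0.05 stood 1 chain and 365 genes. That chain was COL12A1, at 8.97 and 7.84 RPKM in WT and 15.3 and 15.2 in KO clones (log2 fold change 0.79 ± 0.22, adjusted p = 0.822). Of the 17 chains, 15 had a higher mean log2 value in KO clones, as did 3767 of the 7761 genes. The median difference was 0.33 over the chains and -0.01 over all tested genes. These libraries include KO clone 66, the shallowest, and without it the median over the chains was 0.25. Leaving out 1 library at a time gave medians over the tested chains between 0.25 and 0.44, the highest without KO clone 69. Limma-voom called 2 chains higher, COL12A1 (0.84, adjusted p = 1.02e-04) and COL18A1 (0.98, adjusted p = 0.0398), and 56 genes in all. Without KO clone 69 with 4-OHT, limma-trend called 904 genes and 0 chains.

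The difference of the 4-OHT change between genotypes, fitted as an interaction on all 8 libraries, called 0 of 22 chains and 0% of 8777 genes (453 genes and 5 chains at an unadjusted p under 0.05). For COL1A1 the fall was smaller in KO clones by 1.00 ± 0.27 on the log2 scale, with an adjusted p of 0.859. COL8A2 (0.79 ± 0.21), COL6A3 (0.76 ± 0.25) and COL14A1 (0.31 ± 0.12) differed the same way, and COL8A1 (-0.47 ± 0.13) the other. COL8A1, COL8A2 and COL14A1 lie at low values, which this scale compresses, so their level without 4-OHT enters these differences. By group means COL14A1 went from 0.324 to 0.00835 RPKM in WT and from 0.0590 to 0.00205 in KO clones. These are ratios of 38.8 and 28.8, with 7 and 1 reads left. COL6A1 and COL6A2, called in KO clones only, had interactions of 0.63 ± 0.40 and 0.59 ± 0.40 (adjusted p = 0.859 for both), so their change was not shown to differ between genotypes. Limma-voom called 4 genes, COL1A1 among them (1.06, adjusted p = 0.0169).

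The lists of other genes of collagen making and breakdown are read against 21.5% of all tested genes called in either direction in WT clones and 27.7% in KO clones. Of 12 tested hydroxylases, glycosylating enzymes and their partners, 1 rose and 2 fell in WT clones, and 0 rose and 1 fell in KO clones, so the share called was close to that of all genes in WT clones and below it in KO clones. P3H1, a prolyl 3-hydroxylase, fell from 13.6 ± 0.358 to 6.57 ± 0.611 RPKM (mean ± SD, n = 2 clones) in WT and from 15.3 ± 2.42 to 7.36 ± 1.12 in KO clones. Of 10 folding and export genes 4 fell and 0 rose in each genotype. Among them SERPINH1, the collagen chaperone HSP47, fell from 154 ± 15.7 to 38.1 ± 0.147 in WT and from 154 ± 17.6 to 23.6 ± 9.19 in KO clones. CREB3L1, a transcription factor known to act on type I collagen genes, fell from 10.04 ± 1.21 to 2.61 ± 0.485 in WT and from 5.90 ± 0.0286 to 1.46 ± 0.0372 in KO clones. Propeptide-processing genes fell in 3 of 4 cases in WT and 4 of 4 in KO clones, with PCOLCE, an enhancer of C-propeptide removal, from 363 ± 72.0 to 98.2 ± 32.5 and from 508 ± 3.62 to 122 ± 37.4. Of 4 crosslinking enzymes 1 fell in WT and 2 in KO clones, LOX among them in both, from 52.7 ± 4.24 to 18.3 ± 0.576 and from 105 ± 3.07 to 26.5 ± 1.85.

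All 7 tested fibril-associated proteins fell in both genotypes, with a median log2 fold change of -2.73 in WT and -2.05 in KO clones. FN1, fibronectin, on which collagen fibrils are laid down, fell from 139 ± 2.96 to 10.1 ± 0.0841 RPKM in WT and from 97.7 ± 10.2 to 12.3 ± 0.0316 in KO clones. Degradation and uptake genes rose in 1 of 5 cases in each genotype, that of the collagenase MMP1, and fell in 3 of 5 in WT and 2 of 5 in KO clones. MMP1 rose from 12.5 ± 4.65 to 1415 ± 4.23 RPKM in WT and from 12.99 ± 13.2 to 2278 ± 91.5 in KO clones. MRC2, the collagen uptake receptor (matched by its identifier and listed as AC080038.1), fell in WT clones from 30.7 ± 0.746 to 8.18 ± 0.488. In KO clones it went from 31.4 ± 1.69 to 9.66 ± 1.30, much as in WT clones. Of 6 tested collagen receptors 2 rose in each genotype, the integrin subunits ITGA2 and ITGA10, and 2 fell in WT and 0 in KO clones. ITGA2 went from 0.551 ± 0.120 to 8.29 ± 1.36 in WT and from 0.519 ± 0.0501 to 10.4 ± 0.676 in KO clones. Of 10 regulators of collagen genes 1 rose and 1 fell in WT clones and 2 rose and 2 fell in KO clones. The share called was near that of all genes in WT clones and above it in KO clones. PRRX1, a mesenchymal transcription factor, rose from 1.27 ± 0.169 to 5.10 ± 1.69 in WT and from 1.00 ± 0.187 to 5.73 ± 0.233 in KO clones. LARP6, which binds type I collagen mRNAs, rose in KO clones from 1.72 ± 0.370 to 5.46 ± 1.74 (adjusted p = 0.0160). In WT clones it was also higher with 4-OHT, at 6.40 ± 1.79 against 2.92 ± 0.370, but was not called. TGFB2, at low values, fell in WT clones from 0.164 ± 0.0698 to 0.00896 ± 0.0127 (adjusted p = 0.0237).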

How the data were processed

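Ribosome footprints were measured in 8 libraries, 1 per clone and condition. The authors deposited 2 tables of values scaled by gene span and library total, read here as RPKM because value times RefSeq span (GRCh38.p14) added up to about the same sum in all 8 libraries; the files state no unit. The aligner STAR and the build GRCh38 are named per the submitters' processing notes. How reads were counted, with which annotation and how multi-mapping reads were treated is not given in the sources used here. Of 11546 and 11079 genes, 11345 and 10884 got a span by identifier and 102 and 96 by symbol. Dividing value times span by the size of 1 read, estimated for each library, gave approximate reads and depth (77.4% to 82.9% of low values within 0.1 of a whole number). No per-sample column was left unused.

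Planned as a test for normalised values, limma-trend (limma 3.58.1, R 4.3.3) was run on log2(RPKM + 1), with Benjamini-Hochberg adjustment over genes that reached 10 recovered reads in 2 or more of the libraries fitted. Fold changes on this scale understate those of low genes. The 4-OHT comparisons used all 8 libraries with 4 group means, and genotype comparisons used the 4 libraries of 1 table. With 2 against 2 libraries an exact permutation test cannot go below p = 0.333, so none was run. P-values rest on the spread between the 2 libraries of a group, pooled over the groups fitted and drawn toward the trend over all tested genes. Each genotype had 2 clones. A clone gave 1 library per condition, so spread between clones, cultures and libraries cannot be told apart. Every tested chain was named, and of each pathway list the 2 genes with the smallest p in each 4-OHT comparison were eligible. The members and lists were chosen with earlier results of these data known. A planned ratio of reads per codon needed protein lengths not used here, so reads ratios without length are given.

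Clone numbers in the labels pair the libraries with and without 4-OHT. The difference between the clones of a genotype correlated between conditions across 8777 genes with r = 0.143 in WT and 0.00750 in KO clones. Alternatives were a pseudocount of 0.1, no filter, median-ratio scaling, limma-voom, library totals without collagen, other sets of libraries in the fit, each library left out, and the clone as a block. The test code was tested on simulated data.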

Additional observations from a re-analysis of the deposited data

How the results depend on the processing

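Of the chains called with 4-OHT, 12 of 17 in WT and 11 of 16 in KO clones were called under all 15 alternatives, and none changed sign. These include COL15A1 in both genotypes and COL8A2 in WT clones, which passed the read filter only through libraries without 4-OHT. The same count over all genes is not given, so this is a description. The number of chains called lay between 13 and 18 in WT and between 11 and 15 in KO clones when 1 library was left out, and at 0 in the interaction and both genotype comparisons. Over all genes, leaving out 1 library gave between 802 and 2558 calls for 4-OHT in WT clones (1889 with all) and between 1105 and 3488 in KO clones (2427 with all). Without WT clone 15 or 54 the WT count was 868 or 802 for the libraries without 4-OHT and 1069 or 811 for those with it. Without KO clone 66 or 69 without 4-OHT the KO count was 1105 or 1508. Leaving out 1 library gave between 0 and 2 genes for the interaction, 0 and 6 for genotype without 4-OHT, and 0 and 904 for genotype with 4-OHT, each 0 with all libraries; where 1 clone is left in a group it is assumed to vary like the others. Limma-voom gave 2962 genes for 4-OHT in WT clones, 4 genes and 1 chain for the interaction, 68 genes and 3 chains for genotype without 4-OHT and 56 genes and 2 chains with it. It moved the median log2 fold change of all genes from 0.06 to 0.22 in WT clones and from 0.05 to 0.22 in KO clones. For 4-OHT in KO clones, only the 4 KO libraries in the fit gave 1274 genes and 12 chains, 1 of them higher. With all 8 libraries 16 chains were called, 3 of them higher. The calls lost were those of COL4A1, COL6A1, COL7A1 and COL13A1. All 8 libraries gave 3 genes for genotype without 4-OHT. With type IV alone, network chains took 0.142% of reads in WT and 0.158% in KO clones without 4-OHT in place of 0.154% and 0.178%. The causes were not tested. With the clone as a replicate block 16 chains in WT and 15 in KO clones were called in place of 17 and 16 (COL5A3 and COL7A1 lost), and 1556 and 2007 genes; it changed no other call on a chain. Depth limits all chains under about 10 reads per library, most of all in KO clone 66 with 4-OHT.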

Other observations

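Type III relative to type I is a further measure of fibril make-up. The reads ratio of COL3A1 to COL1A1 was 0.137 and 0.143 in WT clones and 0.213 and 0.198 in KO clones without 4-OHT, so the KO clones lay above the WT clones, by more than the difference within either genotype. With 4-OHT it was 0.144 and 0.106 in WT and 0.169 and 0.122 in KO clones, and the genotypes overlapped. Over the same libraries COL3A1 itself was at 106 and 104 RPKM in WT and 119 and 89.0 in KO clones without 4-OHT. These ratios were not tested.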
